A study of Mus musculus with 6 samples.

Results

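The VEGF and angiopoietin genes Vegfa, Vegfc, Vegfd, Angpt1, Angpt2, Kdr, Flt1, Flt4 and Tek were followed through RNA of single nuclei from injured mouse cortex. The members were chosen by name as 5 ligands and 4 receptors, 9 of the 32285 genes counted, and all 9 had counts. Lesions were made by photothrombosis (PT), in which light and a dye close cortical vessels, and were taken 7 or 21 days after it (dpi, days post injury). The 6 libraries were Ctrl (wild-type mice), ADWA11 (wild-type mice given an antibody against integrin αvβ8 from the day of injury and weekly) and Tgfbr2-cKO (genotype Col1a2(creER); Tgfbr2(flox)), each at both time points. All mice had the injury, and the labels name no other treatment. In the Tgfbr2-cKO mice a tamoxifen-inducible Cre under the Col1a2 promoter deletes the type II TGFβ receptor gene in fibroblasts and in any other cell that uses this promoter. The study's methods list several kinds of control for its knockout strains, some given tamoxifen and some not. Which of these the Ctrl mice sequenced here were, and which floxed allele of Tgfbr2 the knockouts carried, was not settled by the sources used here. Each library pooled nuclei of 1 male and 1 female mouse, so that every group was 1 library with no replicate. No difference below was tested, since both mice of a group shared 1 library, and values of nuclei called female or male are descriptions of 1 mouse each. Nuclei that could not be called for sex are left out of those values. They are part of every level and ratio said to be summed over both sexes. Values in square brackets are 95% intervals that cover counting error alone.

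VEGF ligands are secreted proteins that bind receptor tyrosine kinases on endothelium. VEGF-A binds VEGFR2 (the product of Kdr), the main growth and permeability receptor of vessels, and VEGFR1 (Flt1), which holds the ligand tightly and signals weakly. VEGF-C and VEGF-D are the ligands of VEGFR3 (Flt4), known from lymphatic vessels and sprouting tips, and VEGF-C can bind VEGFR2 after processing. Angiopoietin-1 (Angpt1), made by cells around vessels, activates the endothelial receptor TIE2 (Tek) and keeps vessels stable, whereas angiopoietin-2 (Angpt2), made by activated endothelium, is a context-dependent antagonist of the same receptor that accompanies remodelling. In brain, VEGF-A is known as a hypoxia-inducible product of astrocytes and as a cause of barrier opening after stroke.

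Levels are given as UMIs (unique molecular identifiers, counted molecules) of a gene in CPM, that is relative to all UMIs of the nuclei of a class in a library, scaled as counts per 1000000, without mitochondrial genes. Where 6 values follow each other, they are in the order Ctrl, ADWA11 and Tgfbr2-cKO, first at 7 dpi and then at 21 dpi. Gene length was not accounted for, so levels are compared between classes or libraries and not between genes. Classes were rebuilt from marker genes and hold nuclei with endothelial-like (1404), mural-like (507), fibroblast-like (10174), macrophage-like (15433) and astrocyte-like (3388) profiles, written below without the suffix. The members and the other pathway genes were left out of the clustering. All 9 endothelial markers were detected in the endothelial nuclei of every library, at a summed 9015 to 13893 CPM against 132 to 273 CPM in T cells. These markers also named the class, so that the values describe it and do not check its name. Of the 5 classes compared, the smallest groups were 35 endothelial and 40 mural nuclei in Tgfbr2-cKO at 7 dpi. In Ctrl at 7 dpi the nuclei named astrocytes held more summed markers of oligodendrocyte precursors than of astrocytes, as given below. Their name is uncertain there, which limits every astrocyte value of that library. The 6 libraries held 64798965 to 140310354 UMIs. Tgfbr2 in fibroblasts was 315, 251 and 245 CPM on the first day and 230.5, 195 and 190.3 CPM on the second, highest in Ctrl and lowest in Tgfbr2-cKO on both. The libraries count the 3′ ends of transcripts, which need not hold the floxed exon, so that these levels do not check the deletion. Neurons made up 56.3% of the Tgfbr2-cKO nuclei at 7 dpi and 1.68% of those of Ctrl. Neuronal markers summed to 237 CPM in the macrophages of that library and to 10.4 CPM in those of Ctrl. Pairs of libraries shared 21 to 61 cell barcodes, at most 0.513% of the smaller library.

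The receptors were first placed among the classes. Kdr (ENSMUSG00000062960, chromosome 5, 75932827 to 75978458, minus strand), the signalling VEGF receptor, had 549, 552 and 484 CPM in Ctrl, ADWA11 and Tgfbr2-cKO of 7 dpi and 294, 400.0 and 311 CPM in those of 21 dpi in endothelial nuclei. The next class, mural nuclei, had 9.24 to 54.03 CPM, and every other class was at or below 13.3 CPM. Tek (ENSMUSG00000006386, chromosome 4, 94739289 to 94874976, plus strand), the angiopoietin receptor, had 939.9, 717 and 649 CPM in Ctrl, ADWA11 and Tgfbr2-cKO of 7 dpi and 826, 917 and 741 CPM in those of 21 dpi in endothelial nuclei. Its levels outside endothelium reached at most 42.97 CPM in mural nuclei of Ctrl at 21 dpi, and the ranges of the other classes overlapped. The lowest endothelial library stood above the highest library of any other class for both receptors.

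Flt1 (ENSMUSG00000029648, chromosome 5, 147561604 to 147726011, minus strand), which encodes the VEGF-A-holding receptor, had 2214, 1703 and 2341 CPM in Ctrl, ADWA11 and Tgfbr2-cKO of 7 dpi and 2405, 2050.4 and 3048 CPM in those of 21 dpi in endothelial nuclei. Mural nuclei held Flt1 as well, at 273, 357 and 540.3 CPM on the first day and 322, 191 and 229.7 CPM on the second, below all endothelial values and above all values of the 8 remaining classes. Microglia came next with a median of 37.5 CPM and a range of 2.79 to 102 CPM, which overlapped the ranges of macrophages, oligodendrocytes and astrocytes. Flt4 (ENSMUSG00000020357, chromosome 11, 49609263 to 49652739, plus strand), the receptor of VEGF-C and VEGF-D, had 70.5, 81.6 and 103 CPM in Ctrl, ADWA11 and Tgfbr2-cKO of 7 dpi and 90.6, 113 and 88.1 CPM in those of 21 dpi in endothelial nuclei and at most 4.60 CPM in any library of any other class.

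Most endothelial nuclei held receptor UMIs. After thinning every nucleus to 1500 UMIs, 81.9% of endothelial nuclei had a Flt1 UMI (89.7% before thinning), 61.6% a Tek UMI, 37.3% a Kdr UMI and 10.3% a Flt4 UMI. In T cells, a class not known for these receptors and used here to show what free RNA can give, the shares were 0.880%, 0.385%, 0.550% and 0.0550%. Median depth was 3984 UMIs in endothelial nuclei and 2526 in T cells, and thinning left out 148 and 307 nuclei. The Flt1 share was 25.1% in mural nuclei and 5.43% in microglia, both above the T cell share with all libraries summed. In each ADWA11 library 1 thinned microglial nucleus had a Flt1 UMI, and at 21 dpi their Flt1 level of 2.79 CPM lay below the 7.86 CPM of T cells. By thinned share, Kdr reached 2.55% in mural nuclei and 0.776% in microglia.

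**Figure D1:**
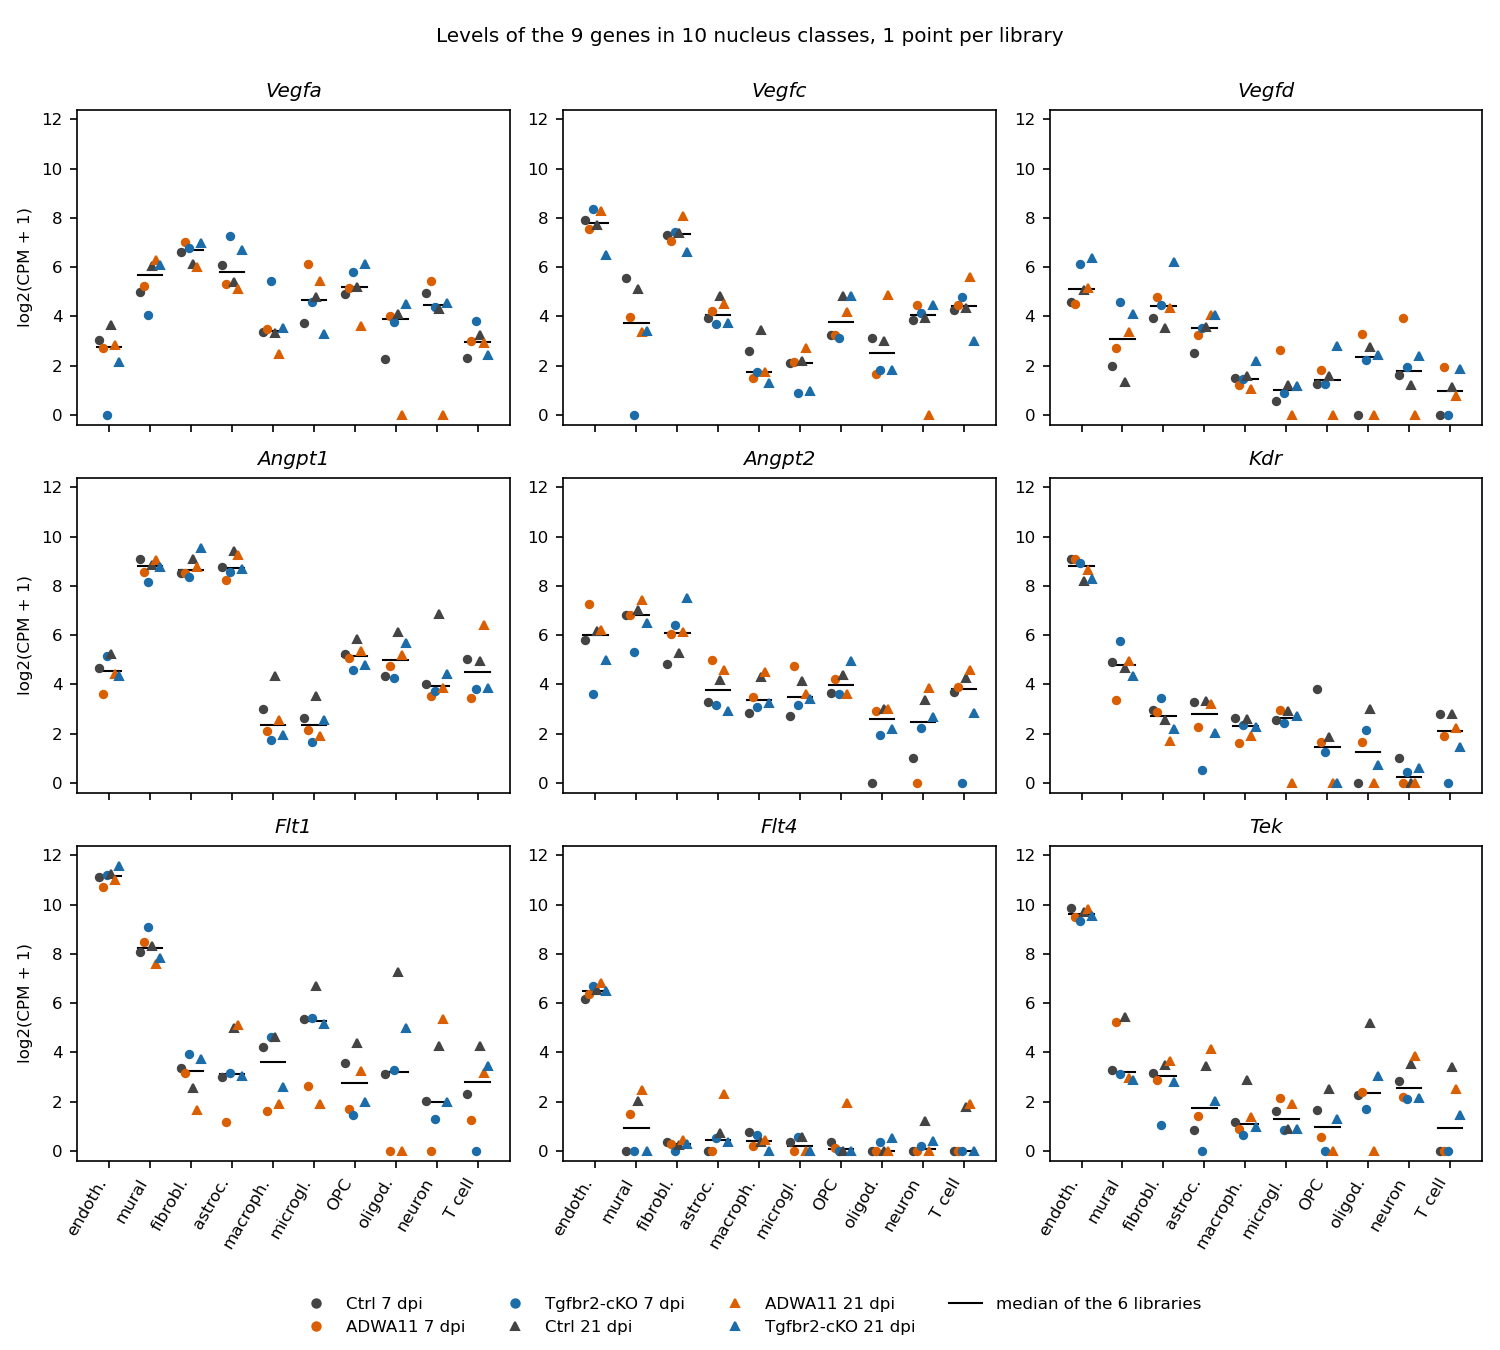
Level of each gene as log2(CPM + 1) (y axis) in 10 classes of nuclei (x axis; OPC, oligodendrocyte precursors), with 1 point for each library (colour, condition; circle, 7 dpi; triangle, 21 dpi) and a line at the median of the 6 libraries. Kdr, Flt1, Flt4 and Tek stand highest in endothelial nuclei in all 6 libraries, and Angpt1 stands highest in mural, fibroblast and astrocyte nuclei.

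The 4 receptor genes are shown with the 250 bases before their RefSeq start (GRCm38.p6), because they share this endothelial pattern, and ETS factors are known regulators of endothelial promoters. Bases in capitals match GGAAG, a core letter run of ETS sites, on either strand, and all sequences run 5′ to 3′ toward the gene:
Kdr, chr5:75978456-75978705: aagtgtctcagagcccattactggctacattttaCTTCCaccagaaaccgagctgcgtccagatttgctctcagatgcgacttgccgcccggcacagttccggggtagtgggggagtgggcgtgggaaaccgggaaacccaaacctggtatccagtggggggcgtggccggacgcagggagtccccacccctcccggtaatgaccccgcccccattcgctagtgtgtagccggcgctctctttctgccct
Flt1, chr5:147726012-147726261: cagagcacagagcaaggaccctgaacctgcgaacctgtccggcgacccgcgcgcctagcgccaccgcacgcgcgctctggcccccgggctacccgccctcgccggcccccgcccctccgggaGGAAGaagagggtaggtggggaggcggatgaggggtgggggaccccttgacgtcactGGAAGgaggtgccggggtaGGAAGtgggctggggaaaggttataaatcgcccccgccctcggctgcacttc
Flt4, chr11:49609429-49609678: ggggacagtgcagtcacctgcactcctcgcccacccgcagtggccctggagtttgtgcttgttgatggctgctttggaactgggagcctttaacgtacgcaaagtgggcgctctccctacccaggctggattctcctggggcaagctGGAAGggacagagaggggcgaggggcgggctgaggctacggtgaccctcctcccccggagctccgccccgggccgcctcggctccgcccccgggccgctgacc
Tek, chr4:94739039-94739288: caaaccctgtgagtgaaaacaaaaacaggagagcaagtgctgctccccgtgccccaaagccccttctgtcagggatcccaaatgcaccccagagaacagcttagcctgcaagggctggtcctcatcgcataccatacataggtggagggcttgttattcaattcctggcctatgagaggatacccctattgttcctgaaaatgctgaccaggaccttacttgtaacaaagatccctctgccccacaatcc
Kdr and Flt4 held 1 match each, Flt1 held 3 and Tek held 0. The Flt4 window lies inside the GENCODE gene, whose start is placed further upstream. Of all 32851 promoter windows of this length, 64.1% held at least 1 match. For the hypoxia response core (ACGTG or GCGTG, either strand), 38.6% of windows held a match. Kdr held 2 such matches, Flt1 held 1, and the Vegfa windows of the upstream and the downstream start held 0 and 2, while those of Vegfc, Vegfd, Flt4 and Tek held 0. The downstream Vegfa window, 46025164 to 46025413, lies well inside the GENCODE gene, 46016993 to 46032369 on the minus strand. Whether its 2 matches act as promoter sites was not tested. The promoters of Angpt1 and Angpt2 were not analysed here.

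Within endothelium the receptors and ligands were unevenly spread. With all 6 libraries summed, of 6 sub-clusters number 4 (161 nuclei), led by Flt4, Plvap and Aplnr, had the highest Flt4 at 251 CPM [216 to 289.7] and the highest Kdr at 636 CPM [579.9 to 697]. Sub-cluster 5 (139 nuclei), led by Bmx, Sema3g and Edn1, had the lowest of both, with Flt4 at 45.2 CPM [30.7 to 64.2] and Kdr at 216 CPM [183 to 254]. The same sub-cluster had the highest Vegfc, at 1058 CPM [982 to 1137], where the other 5 ranged from 79.5 to 169.8 CPM. Its Vegfc was 964 CPM in Ctrl at 7 dpi, 1236 CPM in Ctrl at 21 dpi and 1209.7 CPM in ADWA11 at 21 dpi, the libraries with at least 20 such nuclei. Bmx and Sema3g are known arterial genes, and Plvap is known from fenestrated and immature vessels.

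Sub-cluster 6 (139 nuclei), led by Prnd, Bcl6b and Apln, had 214 CPM [189 to 242] of Angpt2 over all libraries, and sub-cluster 4 had 158 CPM [131 to 189.6], above the other 4. Their order could not be read within a library, since none held at least 20 nuclei of both. Sub-cluster 6 had 132 CPM in Ctrl and 294 CPM under ADWA11 at 7 dpi, and sub-cluster 4 had 541 and 99.1 CPM at 21 dpi, so that the level within each differed between libraries. Sub-cluster 5 had the lowest, at 8.75 CPM [3.21 to 19.05]. Tek and Flt1 had other orders. Tek was lowest in sub-cluster 6 at 391 CPM [356 to 428] and between 949.9 and 1089.6 CPM in sub-clusters 0, 2, 4 and 5, and Flt1 was lowest in sub-cluster 1, which had few UMIs per nucleus, at 1374 CPM [1296 to 1456]. Apln is a known tip-cell gene. Genes that vary with the members took part in the clustering, so that this spread is a description with no test.

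**Figure D2:**
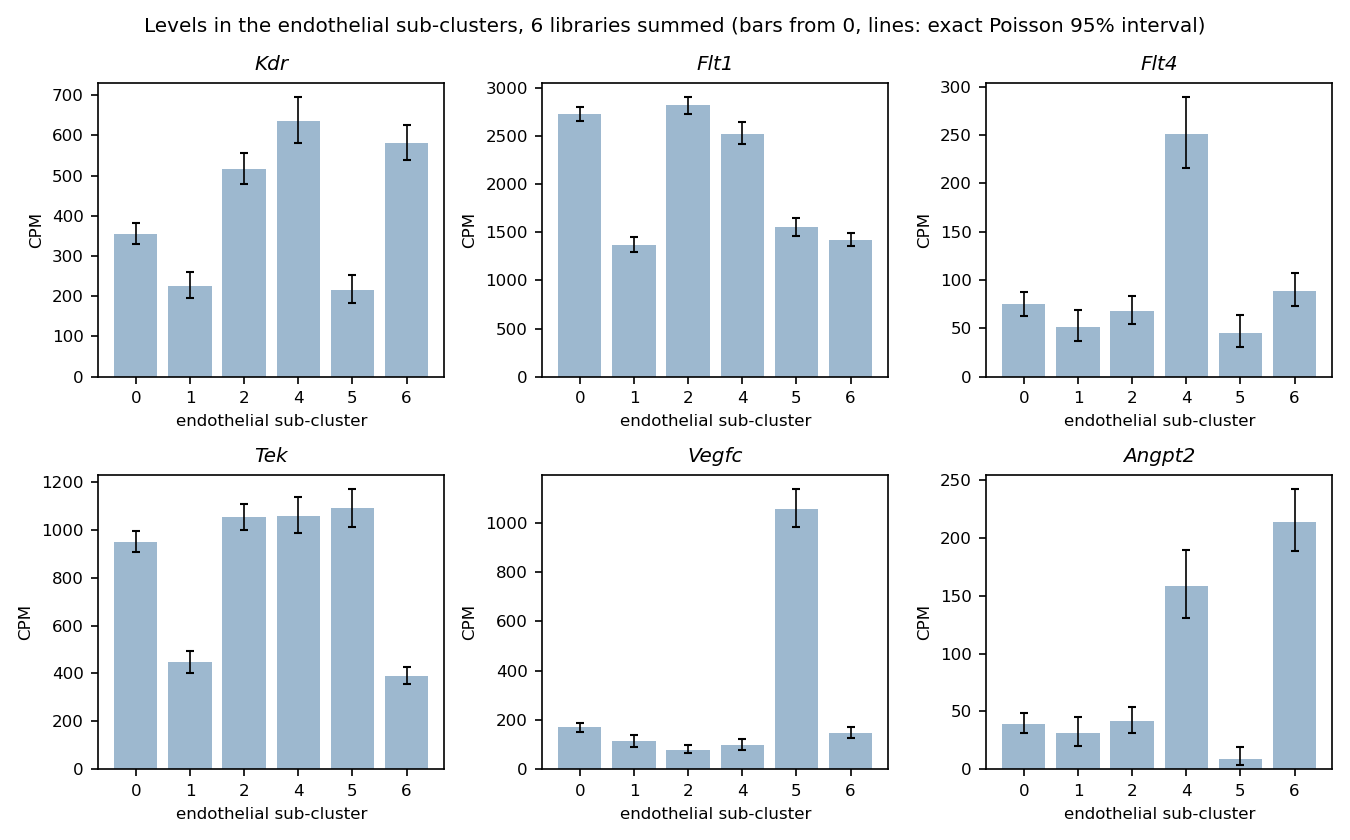
Level in CPM (y axis) of 4 receptors and 2 ligands in the 6 endothelial sub-clusters (x axis, by number), all 6 libraries summed, with exact Poisson intervals. Vegfc stands out in sub-cluster 5 at 1058 CPM, Flt4 in sub-cluster 4 and Angpt2 in sub-clusters 4 and 6.

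Of the markers of lymphatic endothelium, Prox1 and Ccl21a are given here, and Mmrn1, Pdpn and Lyve1 are not. At 21 dpi endothelial nuclei held 43 UMIs of Prox1, the defining lymphatic factor, beside 173 of Flt4 in Ctrl, and 48 beside 149 in ADWA11. They held at most 4 UMIs of Ccl21a, a lymphatic chemokine, in any library. At 7 dpi Ctrl had 5 Prox1 UMIs beside 108 of Flt4.

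The ligands were carried by other classes. Vegfa (ENSMUSG00000023951, chromosome 17, 46016993 to 46032369, minus strand), the main vessel growth factor, had 95.7, 127 and 110.1 CPM in Ctrl, ADWA11 and Tgfbr2-cKO of 7 dpi and 68.8, 64.1 and 127 CPM in those of 21 dpi in fibroblasts. Astrocytes had 67.7, 38.9 and 151 CPM on the first day and 41.6, 34.03 and 104 CPM on the second, and mural nuclei 30.97, 36.97 and 15.4 CPM on the first day and 64.4, 78.2 and 66.98 CPM on the second. The ranges of these 3 classes overlapped, and the order of their medians (103, 54.7 and 50.7 CPM) lay within the spread of the libraries, as did that of oligodendrocyte precursors, 11.3 to 68.7 CPM. Endothelial nuclei had the lowest median, 5.82 CPM from 50 UMIs in all.

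Vegfc (ENSMUSG00000031520, chromosome 8, 54077606 to 54187096, plus strand) had 240.4, 185 and 325 CPM in Ctrl, ADWA11 and Tgfbr2-cKO of 7 dpi and 206, 309.5 and 89.8 CPM in those of 21 dpi in endothelial nuclei and 158, 133 and 169 CPM on the first day and 168, 270.1 and 97.05 CPM on the second in fibroblasts. The 2 ranges overlapped, and both lay above the third class, T cells, with 7.12 to 46.8 CPM. In the 35 endothelial nuclei of Tgfbr2-cKO at 7 dpi, 1 nucleus held 45.6% of the Vegfc UMIs. Vegfd (ENSMUSG00000031380, chromosome X, 164373378 to 164402650, plus strand), the other VEGFR3 ligand, was a low-count gene in every class. Endothelial nuclei had 22.9, 21.4 and 68.3 CPM on the first day and 33.00, 34.2 and 81.2 CPM on the second, and fibroblasts 14.2, 26.8 and 21.02 CPM on the first day and 10.6, 19.4 and 72.4 CPM on the second. Tgfbr2-cKO at 21 dpi was the highest library in both.

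Angpt1 (ENSMUSG00000022309, chromosome 15, 42424723 to 42676977, minus strand), the TIE2 agonist, had 546, 375 and 286 CPM in Ctrl, ADWA11 and Tgfbr2-cKO of 7 dpi and 456, 536 and 431 CPM in those of 21 dpi in mural nuclei, 432, 299.6 and 376 CPM on the first day and 685, 617 and 414 CPM on the second in astrocytes and 369, 369.7 and 329.7 CPM on the first day and 544, 430.1 and 734 CPM on the second in fibroblasts. The 3 classes overlapped. All other classes lay lower, from a median of 34.3 CPM in oligodendrocyte precursors down to 4.09 CPM in macrophages. An Angpt1 UMI was found in 39.6% of astrocytes, 36.5% of fibroblasts and 31.9% of mural nuclei after thinning, against 4.18% of T cells and 0.894% of macrophages.

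Angpt2 (ENSMUSG00000031465, chromosome 8, 18690263 to 18741562, minus strand), the context-dependent TIE2 antagonist, had 111, 113 and 38.6 CPM in Ctrl, ADWA11 and Tgfbr2-cKO of 7 dpi and 130.4, 170.1 and 89.3 CPM in those of 21 dpi in mural nuclei, 27.2, 65.1 and 83.5 CPM on the first day and 37.4, 69.5 and 180.1 CPM on the second in fibroblasts and 55.5, 154 and 11.4 CPM on the first day and 71.8, 73.8 and 31.1 CPM on the second in endothelial nuclei. These 3 ranges overlapped. The lowest endothelial value came from 2 UMIs. Macrophages had 6.25 to 21.7 CPM, which overlapped T cells with 0 to 23.2 CPM.

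The large classes held most UMIs of the ligands. Fibroblasts held 65.3%, 60.03% and 6.62% on the first day and 60.04%, 68.7% and 27.4% on the second of the Vegfa UMIs of each library. For Vegfc the fibroblast shares were 67.9%, 67.7% and 14.4% on the first day and 65.5%, 76.4% and 36.7% on the second, and for Angpt1 they were 72.1%, 68.4% and 19.9% on the first day and 59.2%, 68.8% and 40.9% on the second. Unnamed nuclei held up to 16.6% of Vegfa, 22.1% of Vegfc and 18.1% of Angpt1 UMIs in a library. They include clusters of 3300, 2331 and 1226 nuclei in which fibroblast markers were raised and which are outside these fibroblast shares. In Tgfbr2-cKO at 7 dpi, neurons held 65.9% of Vegfa, 76.9% of Vegfc and 41.1% of Angpt1 UMIs. Astrocytes held 35.2% of Vegfa UMIs in Tgfbr2-cKO at 21 dpi and 11.04% in Ctrl. Endothelial nuclei held 73.1%, 78.3% and 37.2% on the first day and 68.7%, 81.97% and 66.5% on the second of Flt1 UMIs, although they were 0.331% to 4.02% of nuclei.

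**Figure D3:**
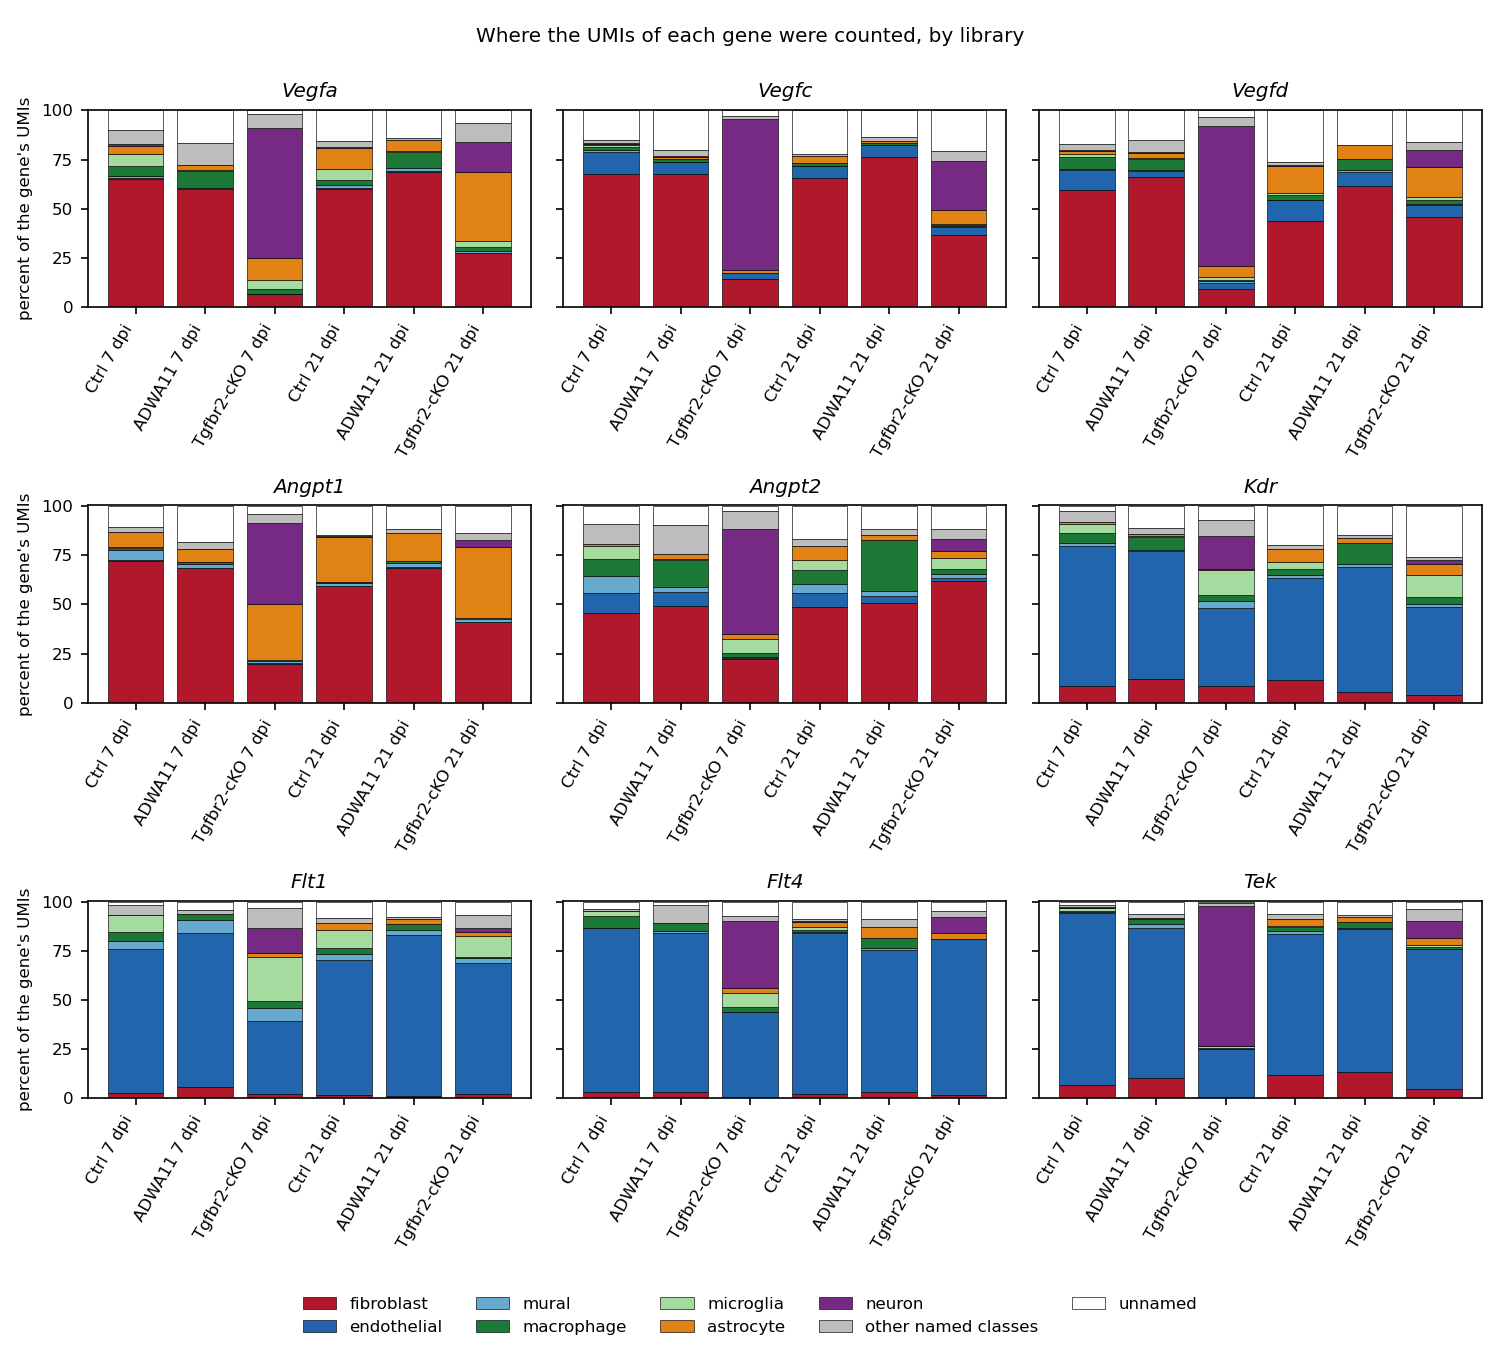
Percent of each gene's UMIs in a library (y axis) counted in each class of nuclei (colours; other named classes are T cells, oligodendrocytes and their precursors, and other myeloid nuclei) for the 6 libraries (x axis). In Ctrl and ADWA11 fibroblasts hold the largest share of each ligand, from 44.01% to 76.4%, and in Tgfbr2-cKO at 7 dpi neurons do.

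The next comparisons asked how the genes differed with time, with deletion of Tgfbr2 and with blockade of αvβ8 within each class. A gene counted as past 2-fold in a class when its log2 ratio was 1 or more in size and the 2 libraries together held at least 50 of its UMIs, both sexes summed. Across 5 classes, 45 combinations of gene and class were possible. The other markers found in a class are given beside the results that they move with. All 4 treated libraries were compared with the Ctrl library of the same day, so that comparisons of 1 day share their control.

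In Ctrl lesions between 7 and 21 dpi, endothelial Kdr was lower at the later day, 549 CPM [512 to 587] against 294 CPM [270.1 to 319], a log2 ratio of -0.90 [-1.06 to -0.74], short of 2-fold. Fibroblast Angpt1 was higher at 21 dpi, 369 CPM against 544 CPM, with a log2 ratio of 0.56 [0.51 to 0.61], and fibroblast Vegfa lower, 95.7 against 68.8 CPM (-0.48 [-0.58 to -0.37]). The Ctrl fibroblasts of the 2 days lay in different sub-clusters, with sub-cluster 1 at 68.1% and 3.37% of them, sub-cluster 0 at 3.51% and 59.4% and sub-cluster 4 at 1.15% and 30.1%. Within sub-clusters 0, 1 and 2, Angpt1 was 399, 367 and 344 CPM at 7 dpi and 524, 551 and 270.0 CPM at 21 dpi, lower at the later day in sub-cluster 2. Vegfa was 57.00, 91.8 and 127 CPM and then 58.4, 131 and 111 CPM, so that the lower level over all fibroblasts was not seen within sub-clusters 0 and 1. Summed over both sexes, none of the members measured passed 2-fold in endothelial nuclei or fibroblasts. Fibroblast Flt1, a low-level gene there, was -0.91 [-1.28 to -0.55] summed but past 2-fold lower in each sex taken apart, with -1.12 in nuclei called female and -1.88 in nuclei called male, and endothelial Angpt2 turned direction by sex, with 1.48 in nuclei called female and -0.57 in nuclei called male. Of 36 combinations measured, 7 were past 2-fold, all of them higher at 21 dpi, against 13.3% of all gene and class combinations in either direction and 9.43% in that direction. They were mural Vegfa (21 and 42 UMIs, log2 ratio 1.06 [0.27 to 1.89]), Angpt1, Angpt2 and Tek in macrophages (1.42, 1.60 and 2.31), and Vegfd, Flt1 and Tek in astrocytes. The astrocyte ratios were 1.19 [0.009 to 2.68], 2.13 [1.18 to 3.27] and 3.67 [1.15 to 8.99]. They rested on 6, 9 and 1 UMIs at 7 dpi and 83, 238 and 77 at 21 dpi, so that the minimum of 50 was reached through the later day. As a mean of CPM per nucleus, astrocyte Vegfd was 0.32. In macrophages the summed fibroblast markers were 734 CPM at 7 dpi and 1204 CPM at 21 dpi, and in astrocytes the summed endothelial markers were 24.4 and 186 CPM, and their part in these ratios was not tested. The astrocyte class differed in kind between the days, with summed astrocyte markers of 3365 and 5635 CPM and summed markers of oligodendrocyte precursors of 6194 and 2148 CPM. In 1 sex, mural Vegfa (0.85, male), macrophage Angpt1 (0.91, female) and macrophage Tek (0.30, male) were short of 2-fold.

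The endothelial sub-clusters differed in share between the days. Sub-cluster 6, with high Kdr and Angpt2, was 18.4% of Ctrl endothelial nuclei at 7 dpi and 0.978% at 21 dpi. Kdr was lower at 21 dpi within other sub-clusters too, 503 and 300.1 CPM in sub-cluster 0, 625 and 357 CPM in sub-cluster 2, and 324 and 98.04 CPM in sub-cluster 5. Its level in sub-cluster 1, with 41 and 167 Ctrl nuclei, is not given here. Both sexes had the lower level of Kdr over all endothelial nuclei, with log2 ratios of -0.98 in nuclei called female and -0.84 in nuclei called male. By contrast, endothelial Flt1 and Tek differed little, with log2 ratios of 0.12 [0.06 to 0.18] and -0.19 [-0.29 to -0.08].

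In Tgfbr2-cKO at 7 dpi, fibroblasts had more Angpt2 than Ctrl, 83.5 CPM [70.7 to 97.96] from 151 UMIs against 27.2 CPM [24.5 to 29.97], a log2 ratio of 1.62 [1.34 to 1.90]. The ratio was 1.59 in nuclei called female and 1.67 in nuclei called male. Within sub-cluster 1, which led in both libraries, Angpt2 was 29.9 CPM in Ctrl and 100.4 CPM in Tgfbr2-cKO, and within sub-cluster 2 it was 22.5 and 65.97 CPM. The other fibroblast ligands were within 2-fold of Ctrl, with log2 ratios of 0.20 [-0.02 to 0.42] for Vegfa, 0.10 [-0.08 to 0.27] for Vegfc, 0.57 [0.03 to 1.07] for Vegfd and -0.16 [-0.29 to -0.04] for Angpt1. Tek in fibroblasts was 2 UMIs against 117, a ratio of -2.87 [-5.93 to -0.98] at levels near background.

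Endothelial Angpt2 went the other way at 7 dpi. It was 55.5 CPM in Ctrl and 11.4 CPM in Tgfbr2-cKO, where 35 nuclei held 2 UMIs, so that the log2 ratio of -2.29 [-5.35 to -0.39] has a wide interval. Mural Angpt2 was 5 UMIs against 75 (-1.52 [-3.18 to -0.23]). The mural nuclei lay in different sub-clusters, with 10 of 40 in sub-cluster 0 (led by Stac, Abcc9 and Rgs5) and 28 in sub-cluster 1 (led by Atp13a5, Tbx3os1 and Slc38a11) in Tgfbr2-cKO, against 57 and 6 of 90 in Ctrl. Summed over both sexes the endothelial receptors were within 2-fold, with log2 ratios of -0.18 [-0.52 to 0.14] for Kdr, 0.08 [-0.07 to 0.23] for Flt1, 0.54 [-0.27 to 1.27] for Flt4 and -0.53 [-0.82 to -0.26] for Tek. By sex, Kdr was past 2-fold lower in the female nuclei alone (-1.28 in nuclei called female and 0.01 in nuclei called male) and Tek in the male nuclei alone (-0.19 in nuclei called female and -1.09 in nuclei called male). Sub-cluster 0, led by the transporter gene Slco1a4, was 65.7% of endothelial nuclei in Tgfbr2-cKO and 20.5% in Ctrl.

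Vegfa was higher in macrophages and astrocytes of Tgfbr2-cKO at 7 dpi. In macrophages it was 9.42 CPM (110 UMIs) in Ctrl and 42.01 CPM (72 UMIs) in Tgfbr2-cKO, a log2 ratio of 2.16 [1.71 to 2.60], with 2.34 in nuclei called female and 2.04 in nuclei called male. The summed neuronal markers of these macrophages, given above, were higher too, Vegfa in neurons of this library was 19.9 CPM, and the part of free RNA was not tested. In astrocytes Vegfa was 67.7 and 151 CPM, a log2 ratio of 1.16 [0.81 to 1.52], but with 0.21 in nuclei called female and 2.35 in nuclei called male, and 1 nucleus held 46.5% of the Ctrl UMIs. The astrocytes differed in kind, with summed astrocyte markers of 3365 CPM in Ctrl and 11399 CPM in Tgfbr2-cKO and summed markers of oligodendrocyte precursors of 6194 and 985 CPM. Among 25 combinations measured, 3 were past 2-fold higher and 5 lower, together 8, against 11.9% of all gene and class combinations. The remaining lower ones were Vegfc and Angpt1 in macrophages, where summed fibroblast markers were 734 CPM in Ctrl and 62.4 CPM in Tgfbr2-cKO, whose part was not tested. Macrophage Vegfc was 4 UMIs in Tgfbr2-cKO against 58 in Ctrl (-1.09 [-3.01 to 0.34]), with an interval that holds 0. Macrophage Angpt1 was 4 against 83 UMIs (-1.61 [-3.52 to -0.20]). In nuclei called female, the Tgfbr2-cKO macrophages held 0 UMIs of either gene.

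At 21 dpi fibroblasts of Tgfbr2-cKO had more Vegfd and more Angpt2 than Ctrl. Vegfd was 10.6 CPM [9.37 to 11.9] in Ctrl and 72.4 CPM [64.9 to 80.5] in Tgfbr2-cKO, a log2 ratio of 2.77 [2.54 to 3.01]. Angpt2 was 37.4 CPM [35.1 to 39.9] and 180.1 CPM [168 to 193], a log2 ratio of 2.27 [2.13 to 2.40]. Both sexes showed both, Vegfd with 3.54 in nuclei called female and 1.63 in nuclei called male, and Angpt2 with 2.20 in nuclei called female and 2.26 in nuclei called male. Summed over both sexes, Vegfa (0.88 [0.74 to 1.01]) and Angpt1 (0.43 [0.38 to 0.48]) were higher within 2-fold, while Vegfc was lower (-0.79 [-0.93 to -0.65]). Vegfa was past 2-fold in 1 sex, with 0.42 in nuclei called female and 1.11 in nuclei called male. Summed fibroblast markers in these nuclei were 8089 CPM in Ctrl and 3681 CPM in Tgfbr2-cKO.

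These fibroblasts fell into different sub-clusters. Sub-cluster 6 (303 nuclei), led by Ebf3, Lvrn, Scn7a and Fgf7, made up 60.8% of the Tgfbr2-cKO fibroblasts at 21 dpi and 0% of those of Ctrl, where sub-clusters 0 and 4 made up 59.4% and 30.1%. A cluster mostly of 1 library may be that library and not a type. Sub-cluster 6 raised 3 fibroblast and 3 astrocyte markers, and on this tie it kept the name of its parent cluster. Its name as fibroblast is therefore uncertain. It had 95.8 CPM of Vegfd, 237 of Angpt2, 893 of Angpt1 and 147 of Vegfa, the highest of the sub-clusters for each of the 4. In the sub-clusters that both libraries shared, Vegfd was 12.7 (Ctrl) and 20.9 CPM (Tgfbr2-cKO) in sub-cluster 0 and 17.7 and 33.3 CPM in sub-cluster 2, and Angpt2 was 44.4 and 55.3 CPM and 56.1 and 79.6 CPM. Both genes differed by less within these shared sub-clusters than over all fibroblasts.

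**Figure D4:**
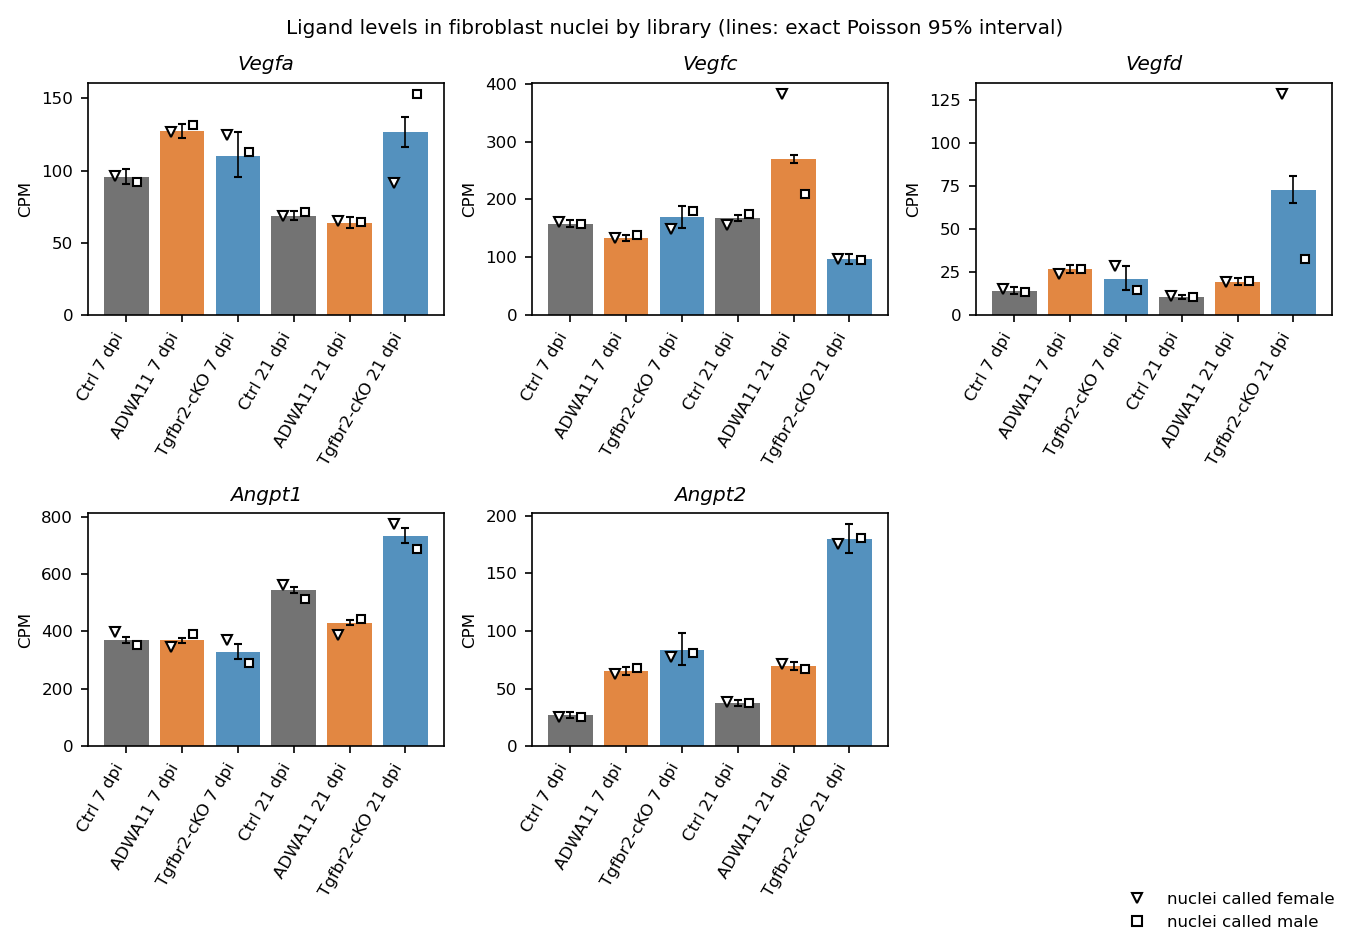
Level in CPM (y axis, from 0) of the 5 ligand genes in fibroblast nuclei of the 6 libraries (x axis; grey, Ctrl; orange, ADWA11; blue, Tgfbr2-cKO), with exact Poisson intervals and the values of nuclei called female (triangles) and male (squares). Angpt2 is above Ctrl of the same day in all 4 treated libraries and in both sexes, and Vegfd is highest in Tgfbr2-cKO at 21 dpi, where the sexes lie far apart.

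Endothelial nuclei of Tgfbr2-cKO at 21 dpi had less Vegfc (206 CPM in Ctrl and 89.8 CPM, log2 ratio -1.20 [-1.65 to -0.78]) and less Angpt2 (71.8 and 31.1 CPM, -1.21 [-2.004 to -0.49]), and more Vegfd (33.00 and 81.2 CPM, 1.30 [0.72 to 1.87]). The Angpt2 ratio was -2.57 in nuclei called female and 0.02 in nuclei called male, so that it rested on the female nuclei, and that of Vegfc was -0.39 in nuclei called female and -2.80 in nuclei called male. The Vegfc-rich sub-cluster 5 was 9.78% of endothelial nuclei in Ctrl and 4.10% in Tgfbr2-cKO. In sub-cluster 0, which was 33.5% and 63.1%, Vegfc was 113 and 96.04 CPM and Vegfd 41.8 and 108 CPM. The receptors were within 2-fold, with Flt1 the highest of the 6 libraries at 3048 CPM (0.34 [0.26 to 0.42] against Ctrl) and Kdr at 311 CPM (0.08 [-0.17 to 0.33]), for which the sexes lay on opposite sides of Ctrl, with -0.60 in nuclei called female and 0.48 in nuclei called male.

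Astrocyte Vegfa was again higher in Tgfbr2-cKO, 41.6 CPM [37.2 to 46.4] against 104 CPM [96.5 to 111], a log2 ratio of 1.32 [1.13 to 1.51], with 1.23 in nuclei called female and 1.81 in nuclei called male. Summed astrocyte markers in these nuclei were 5635 CPM in Ctrl and 10614 CPM in Tgfbr2-cKO, and summed fibroblast markers 1775 and 328 CPM. Vegfc, Angpt2, Kdr, Flt1 and Tek were lower there past 2-fold, along with those fibroblast markers and with summed endothelial markers of 186 and 82.7 CPM, whose part was not tested. In all, 17 of 35 combinations were past 2-fold at 21 dpi, 5 higher and 12 lower, against 10.6% of all gene and class combinations, and 10 of the 12 lower ones were in macrophages and astrocytes. In macrophages 5 of 7 measured members were past it, where 7.96% of all macrophage genes were, and in astrocytes 6 of 8, where 9.27% were. Summed fibroblast markers in macrophages were 1204 and 67.96 CPM, and the macrophage members, Vegfc, Angpt1, Angpt2, Flt1 and Tek, were all lower. In that order, Ctrl macrophages held 73, 141, 140, 177 and 47 of their UMIs. Those of Tgfbr2-cKO held 6, 12, 36, 21 and 4, so that the minimum of 50 was reached mainly through Ctrl. The log2 ratios were -2.78, -2.73, -1.14, -2.25 and -2.73. That of Flt1 was -0.68 with log-normalised clustering, and 33.3% of its Tgfbr2-cKO UMIs lay in 1 nucleus. In male nuclei alone, macrophage Angpt2 (-0.61) and astrocyte Vegfc (-0.28) were short of 2-fold, and macrophage Tek had 2 and 4 UMIs, too few for a ratio. Fibroblast Flt1, counted among the higher ones, had 58 UMIs, 31.03% of them in 1 nucleus, and its ratio of 1.33 was -0.21 without the 5 richest nuclei of each library and 0.20 in nuclei called female and 0.77 in nuclei called male.

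Under ADWA11 at 7 dpi, Angpt2 was higher in fibroblasts and in endothelial nuclei. In fibroblasts it was 65.1 CPM [61.6 to 68.8] against 27.2 CPM in Ctrl, a log2 ratio of 1.26 [1.10 to 1.43], with 1.28 in nuclei called female and 1.42 in nuclei called male. Within sub-clusters 1 and 2 it was 67.9 and 66.9 CPM against 29.9 and 22.5 CPM. In endothelial nuclei it was 154 CPM [133 to 177] against 55.5 CPM [44.3 to 68.6], a log2 ratio of 1.47 [1.09 to 1.85], with 2.43 in nuclei called female and 0.83 in nuclei called male. Sub-cluster 6, led by Prnd and Apln, was 36.7% of these nuclei and 18.4% of those of Ctrl, and within it Angpt2 was 294 CPM under ADWA11 and 132 CPM in Ctrl.

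Mural Angpt2 differed little at 7 dpi under ADWA11, 113 CPM against 111 CPM in Ctrl (0.03 [-0.48 to 0.53]). Endothelial Flt1 (-0.38 [-0.46 to -0.30]) and Tek (-0.39 [-0.51 to -0.27]) were lower within 2-fold, and Kdr was level (0.01 [-0.14 to 0.15]). Endothelial Angpt1 was 14 UMIs against 37 (-1.12 [-2.12 to -0.20]), with 27.03% of the Ctrl UMIs in 1 nucleus. It was 0 against 7 UMIs in female nuclei and short of 2-fold in male nuclei (-0.60). Of 30 combinations measured, 8 were past 2-fold, 3 higher and 5 lower, against 6.98% of all gene and class combinations. All 3 higher ones were Angpt2, the third in astrocytes with 73 UMIs against 11 and a log2 ratio of 1.82 [0.89 to 2.88]. That ratio was 4.24 in nuclei called female and 0.34 in nuclei called male, and the female Ctrl nuclei held 1 UMI. These Ctrl astrocytes held more summed markers of oligodendrocyte precursors than of astrocytes, as given above. The lower ones were endothelial Angpt1 and, in macrophages, Flt1, Vegfc (4.97 CPM in Ctrl and 1.83 CPM, -1.44 [-1.98 to -0.90]), Angpt1 (7.11 and 3.37 CPM, -1.08 [-1.49 to -0.65]) and Kdr (5.14 and 2.12 CPM, -1.28 [-1.79 to -0.76]). Angpt1 was short of 2-fold in female macrophages (-0.61) and Kdr in male ones (-0.49). Summed fibroblast markers in macrophages were 734 CPM in Ctrl and 342 CPM under ADWA11 and summed endothelial markers 34.3 and 20.4 CPM, whose part was not tested. By class, 4.76% of fibroblast and 3.65% of endothelial genes were higher by 2-fold or more.

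At 21 dpi under ADWA11, no member was past 2-fold in endothelial, mural or astrocyte nuclei of both sexes summed. Fibroblast Angpt2 was 69.5 CPM against 37.4 CPM (0.89 [0.77 to 1.01]), Vegfd 19.4 against 10.6 CPM (0.87 [0.64 to 1.10]) and Vegfc 270.1 against 168 CPM (0.69 [0.63 to 0.75]), all higher within 2-fold. The Vegfc ratio was 1.30 in nuclei called female and 0.27 in nuclei called male. Sub-clusters 0 and 4 made up 93.1% and 0.840% of the ADWA11 fibroblasts and 59.4% and 30.1% of those of Ctrl. Within sub-cluster 0, Angpt2 was 70.7 CPM under ADWA11 and 44.4 CPM in Ctrl, Vegfd 19.1 and 12.7 CPM and Vegfc 277 and 192 CPM. Within sub-cluster 2 they were 51.4 and 56.1 CPM, 18.8 and 17.7 CPM and 130.3 and 115 CPM, with Angpt2 not higher there. Endothelial Kdr was 400.0 against 294 CPM (0.44 [0.27 to 0.62]) and Vegfc 309.5 against 206 CPM (0.58 [0.38 to 0.79]). Vegfc turned direction by sex, with 1.33 in nuclei called female and -0.67 in nuclei called male, and the Kdr ratio was 0.01 in nuclei called female and 0.85 in nuclei called male. The Flt4-rich sub-cluster 4 was 29.02% of ADWA11 endothelial nuclei and 6.26% of those of Ctrl. Of 36 combinations, 7 were past 2-fold, all lower, against 6.47% of all combinations in either direction and 3.87% lower. These were Kdr and Flt1 in fibroblasts, at 2.24 and 2.13 CPM (Kdr -0.16 in nuclei called female and -1.75 in nuclei called male, Flt1 -1.17 in nuclei called female and -0.44 in nuclei called male), and Vegfa, Vegfc, Angpt1, Flt1 and Tek in macrophages, where summed fibroblast markers were 1204 CPM in Ctrl and 493 CPM under ADWA11, whose part was not tested. Macrophage Angpt1 was short of 2-fold in female nuclei (-0.78), and Tek in both sexes taken apart (-0.84 in nuclei called female and -0.86 in nuclei called male). Of the 47 Tek UMIs of Ctrl macrophages, 16 lay in nuclei called female and 4 in nuclei called male.

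**Figure D5:**
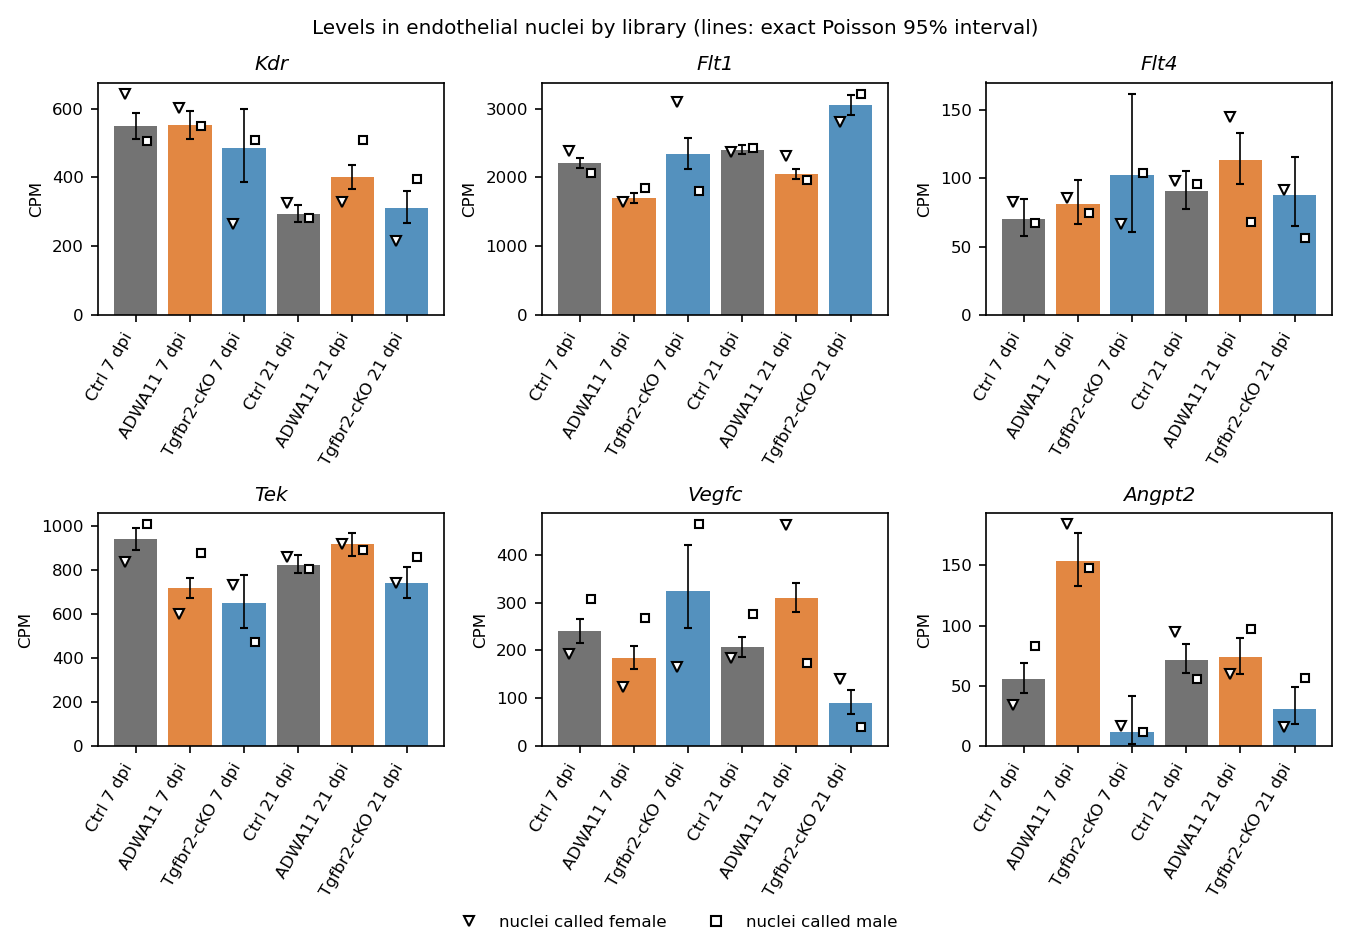
Level in CPM (y axis, from 0) of the 4 receptor genes, Vegfc and Angpt2 in endothelial nuclei of the 6 libraries (x axis; grey, Ctrl; orange, ADWA11; blue, Tgfbr2-cKO), with exact Poisson intervals and the values of nuclei called female (triangles) and male (squares). Summed over both sexes, the receptors differ by less than 2-fold between conditions of the same day, and Angpt2 is highest under ADWA11 at 7 dpi.

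Of the members past 2-fold under ADWA11, macrophage Flt1 had the largest ratio on both days. Macrophages had 17.6, 2.09 and 23.9 CPM on the first day and 23.9, 2.78 and 5.03 CPM on the second, log2 ratios of -3.07 [-3.48 to -2.68] and -3.11 [-3.49 to -2.73] for ADWA11. With all myeloid nuclei in place of macrophages these were -3.83 and -4.36. Microglia had 40.6, 5.15 and 41.2 CPM on the first day and 102, 2.79 and 34.4 CPM on the second, with 105 and 68 nuclei in the ADWA11 libraries. Summed microglial markers were 857 and 251 CPM in these ADWA11 nuclei and 2438 and 1989 CPM in Ctrl, and P2ry12 and Tmem119 had no UMI in the 68 nuclei at 21 dpi. In Ctrl there were 2.36 Flt1 UMIs per Tek UMI in endothelial nuclei at 7 dpi and 2.91 at 21 dpi, 13.7 and 3.77 in macrophages and 19.5 and 122 in microglia. Those of macrophages rested on 15 and 47 Tek UMIs and those of microglia on 21 and 5, so that these ratios are imprecise. Under ADWA11 there were 2.43 and 1.75 in macrophages, from 30 and 51 Tek UMIs, and 2.37 and 2.24 in endothelial nuclei. In Tgfbr2-cKO there were 41.00 and 5.25 in macrophages, from 1 and 4 Tek UMIs, and 3.61 and 4.11 in endothelial nuclei. The part of free endothelial RNA in macrophage Flt1 was not tested. Macrophages were spread over different sub-clusters, sub-cluster 2 leading in both Ctrl libraries and sub-clusters 3 and 0 under ADWA11 at 7 and 21 dpi. Microglia were 1753 and 1181 nuclei in Ctrl at 7 and 21 dpi and 105 and 68 under ADWA11. Macrophages were 1990 and 1770 nuclei in Ctrl and 4867 and 5684 under ADWA11. Macrophage sub-clusters 2 and 3 each also raised 3 microglial markers. Whether the 2 classes were split alike in these libraries, which bears on every macrophage ratio under ADWA11, was not tested. At 7 dpi Flt1 was 16.3 CPM in Ctrl and 2.36 CPM under ADWA11 within sub-cluster 2 and 6.75 and 1.19 CPM within sub-cluster 0, the latter from 3 and 9 UMIs and the ADWA11 level in sub-cluster 2 from 2. At 21 dpi it was 12.8 CPM [7.58 to 20.2] and 2.36 CPM [1.73 to 3.14] within sub-cluster 0. Within sub-cluster 2 it was 30.2 CPM [24.5 to 36.9] and 22.6 CPM [11.3 to 40.4], which overlap, so that the lower level of ADWA11 at 21 dpi was not seen beyond counting error in that sub-cluster.

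Over all nuclei of a library, the classes captured enter the level, and fewer cells of a type and less RNA per cell cannot be told apart at this level. Kdr was 22.2, 12.01 and 1.77 CPM on the first day and 16.3, 11.8 and 7.64 CPM on the second, Tek 31.1, 13.3 and 3.85 CPM on the first day and 33.1, 23.7 and 11.3 CPM on the second and Angpt1 140.1, 121 and 24.96 CPM on the first day and 351, 176 and 159 CPM on the second. Tek turned direction by sex under ADWA11 at 21 dpi. It was 34.7 CPM against 29.97 CPM in Ctrl in nuclei called female and 15.6 against 33.1 CPM in nuclei called male. In Tgfbr2-cKO at 7 dpi the log2 ratios to Ctrl were -3.64 for Kdr, -3.25 for Flt1, -3.01 for Tek and -2.49 for Angpt1, and without neurons, astrocytes, oligodendrocytes and their precursors they were -0.85, -0.38, -1.74 and -1.15. At 21 dpi they were -1.10, -1.02, -1.55 and -1.15 in the same order, and -0.28, -0.23, -0.91 and -0.73 without those classes. Vegfc was lower in Tgfbr2-cKO at both days under either count, -1.85 and -2.06 with neural nuclei and -0.99 and -1.82 without them. Vegfa had log2 ratios to Ctrl of -0.68 at 7 dpi and -0.10 at 21 dpi in Tgfbr2-cKO, and of 0.25 and -0.74 under ADWA11. Without neural nuclei those of Tgfbr2-cKO were -0.024 and -0.35, so that the difference at 7 dpi was not seen there. With neural nuclei, Vegfa in Tgfbr2-cKO at 21 dpi was 33.5 CPM against 44.5 CPM in Ctrl in nuclei called female. In nuclei called male it was 48.8 against 45.8 CPM.

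Other genes of the pathway, 43 in all, were counted by the same rule. In endothelial nuclei those past 2-fold were few. For Tgfbr2-cKO there were 26 measured, 0 higher and 3 lower past 2-fold at 7 dpi and 29 measured, 1 higher and 0 lower at 21 dpi, with medians of the log2 ratio of -0.21 and 0.09, where the medians over all endothelial genes were -0.05 and -0.0016. The background shares were 13.1% and 8% in either direction. At 7 dpi the lower ones were Dll4 (2 against 50 UMIs), a Notch ligand of tip cells, Plvap (7 against 166) and Unc5b (10 against 177), a guidance receptor. These are raw counts out of 175579 endothelial UMIs in Tgfbr2-cKO and 1531011 in Ctrl, so that the levels differ by far less than the counts. They rest on 35 nuclei in Tgfbr2-cKO. At 21 dpi Hif3a, a hypoxia-inducible factor subunit, was 75.98 CPM against 4.19 CPM (4.18 [3.08 to 5.48]), and its fibroblast level, given next, was of like size. Under ADWA11 there were 29 measured, 2 higher and 1 lower at 7 dpi and 28 measured, 1 higher and 0 lower at 21 dpi, with backgrounds of 5.26% and 4.79%. The higher ones were Apln, the tip-cell peptide, with 51.5 against 13.1 CPM (1.98 [1.24 to 2.78]) and Pgf, a ligand of VEGFR1, with 38.04 against 14.4 CPM (1.40 [0.65 to 2.20]) at 7 dpi, and Plvap with 218 against 106 CPM (1.04 [0.77 to 1.30]) at 21 dpi. Shb, an adaptor of VEGFR2, was the lower one at 7 dpi (-1.02 [-1.47 to -0.59]). In Ctrl, 1 was higher at 21 dpi than at 7 dpi and 1 lower of 28 measured, Ccbe1 (1.30 [0.66 to 1.99]) and Unc5b (-1.31 [-1.69 to -0.93]), with a background of 9.96%.

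In fibroblasts several pathway genes differed in Tgfbr2-cKO at 21 dpi. Svep1, a matrix protein that can bind angiopoietins, was 370.4 CPM against 50.01 CPM (2.89 [2.78 to 2.99]), and Adamts3, the protease that activates VEGF-C, was 35.9 against 131 CPM (-1.87 [-2.10 to -1.64]). Hif3a was 100.0 against 3.99 CPM (4.65 [4.33 to 4.97]), and Cd34, a sialomucin of endothelium and many fibroblasts, 14.2 against 3.84 CPM (1.89 [1.42 to 2.36]). In this comparison there were 34 measured, 3 higher and 6 lower past 2-fold, where the background was 15%. Hif3a was also higher in fibroblasts at 7 dpi, in Tgfbr2-cKO (2.496 [1.71 to 3.26]) and under ADWA11 (1.44 [0.91 to 2.003]). At 7 dpi in Tgfbr2-cKO there were 33 measured, 2 higher and 3 lower, with background 9.23%, among them Angpt4 (26 against 48 UMIs, 2.12 [1.37 to 2.84]) and the TIE2 phosphatase gene Ptprb (7 against 252 UMIs, -2.17 [-3.49 to -1.10]). Unc5b was lower there as well (-1.31 [-2.003 to -0.70]).

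Under ADWA11 the fibroblast counts were 36 measured, 2 higher and 3 lower past 2-fold at 7 dpi and 36 measured, 1 higher and 4 lower at 21 dpi, with backgrounds of 6.99% and 6.04%. Ptprb (-2.63 [-3.08 to -2.21] and -1.89 [-2.31 to -1.50]) and Unc5b (-1.83 [-2.09 to -1.57] and -1.96 [-2.39 to -1.55]) were lower at both days, as was Pdgfb, a growth factor for pericytes (-1.37 [-2.15 to -0.62] and -1.52 [-2.13 to -0.95]), and Cd34 was higher at 21 dpi (1.54 [1.19 to 1.90]). In Ctrl fibroblasts Adamts3 was 26.7 CPM at 7 dpi and 131 CPM at 21 dpi (2.30 [2.14 to 2.45]), and Nrp2, a co-receptor of VEGF-C, was 354 and 121 CPM (-1.55 [-1.61 to -1.48]), among 36 measured, 2 higher and 3 lower past 2-fold, with a background of 17.6%. The others named by size were Unc5b (-1.38 [-1.59 to -1.16]) and Egr3, a VEGF-response transcription factor (1.34 [0.87 to 1.84]).

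Genes with the most similar pattern were sought over 52 combinations of class and library, by Pearson correlation of log2(CPM + 1), as a description without a test, since combinations share libraries and nuclei of 1 class. For Kdr these were Eng (0.91), Tie1 (0.90), Aplnr (0.90), for Flt1 Tie1 (0.90), Pcdh12 (0.88), Notch4 (0.87), for Flt4 Ushbp1 (0.95), Robo4 (0.94), Ccm2l (0.94) and for Tek Ushbp1 (0.95), Mecom (0.94), Dipk2b (0.94). For Angpt1 they were Ror1 (0.95), Lama2 (0.92), Fam20a (0.91), for Angpt2 Mylk (0.86), Ppic (0.85), Grk5 (0.85), for Vegfc Fat4 (0.89), Hmcn1 (0.87), Palmd (0.87), for Vegfd Pir (0.85), Lpin3 (0.83), Pgm5 (0.82) and for Vegfa Gpr173 (0.81), Rab34 (0.79), Bmpr1a (0.78). The coefficients were above 0.85 for the 4 receptors and lowest for Vegfa.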

How the data were processed

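Nuclei of dissected lesions were profiled by 10x 3′ single-nucleus RNA sequencing, 1 library per group. The deposited values were UMI counts per gene and barcode, made by the authors with Cell Ranger (7.1.0 in the labels, 7.2.0 in the file headers) on mm10. From these counts, nuclei between the 2.5 and 97.5 percentiles of UMIs and of genes, and below the upper one for mitochondrial share, were kept, 61917 of 67360 barcodes, and clustered with SCTransform (Seurat 5.3.0 with sctransform 0.4.2 under R 4.3.3; 3000 variable genes, 30 components) without the members and the 43 other pathway genes. Clusters and sub-clusters were named from marker genes, those in which over 50% of nuclei were called doublets were set aside, and clusters that met no naming rule stayed unnamed. Nuclei were ranked by the share of simulated doublets (scanpy 1.11.5) among their nearest neighbours. The number called doublets was fixed in advance, at 0.8% of a library per 1000 barcodes. UMIs were summed per class and library (numpy 2.4.6, scipy 1.17.1), with exact Poisson intervals for CPM, exact binomial intervals for ratios and Clopper-Pearson intervals for shares. The intervals cover counting error only, and the depth behind each value is its UMI count. Groups came from the labels, the mice of a pool were told apart by sex-linked genes, and with 1 library per group no test was made. Nuclei with no UMI of these genes, or with those of both sexes, stayed uncalled. Of 8294 nuclei in Ctrl at 7 dpi, 3103 were called female and 3075 male. A ratio summed over both sexes holds the uncalled nuclei and can lie outside the values of both sexes. The computation recovered known folds in Poisson counts simulated for summed endothelial and fibroblast nuclei. The simulation held no spread between nuclei or mice, so that it checks the arithmetic alone. The members and lists were chosen with earlier results of these data known, and the rule for naming sub-clusters was set after clusters were seen. All members were described, and the text names at most 4 other pathway genes per comparison and class, those past 2-fold with the largest ratio, and the 3 genes most like each member in pattern. Alternatives were another clustering, doublet removal, TMM scaling, a mean over nuclei, each sex alone, the richest nuclei left out and other UMI minimums. The coordinates are those of GENCODE on GRCm38.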

Additional observations from a re-analysis of the deposited data

How the results depend on the processing

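No paired analysis was possible because each group was 1 library and no replicate numbers link them. Leaving out 1 mouse of each library is given as the values of female or male nuclei alone, which also leave out nuclei not called for sex. Of the counts of members past 2-fold, that for Tgfbr2-cKO at 7 dpi was 4 in place of 8 with at least 100 UMIs, that for Tgfbr2-cKO at 21 dpi was 7 in place of 17 in male nuclei, and that for ADWA11 at 7 dpi was 3 in place of 8 in male nuclei. For Ctrl at 21 against 7 dpi the count was 7, and it was 11 with log-normalised clustering, 11 with a mean of CPM per nucleus and 3 with at least 100 UMIs. Other counts stayed within 1.5 times. Of the log2 ratios, endothelial Angpt2 in Tgfbr2-cKO at 21 dpi was 0.0166 in male nuclei and fibroblast Flt1 in the same comparison -0.21 without the 5 nuclei with most UMIs. An alternative that left a library with 0 UMIs of a gene gave no ratio. Library-level Angpt2 in Tgfbr2-cKO had log2 ratios of -1.52 at 7 dpi and -0.18 at 21 dpi, and of 0.30 and 0.58 without neural nuclei. The causes were not tested. TMM scaling reversed 0 ratios. A further 3 alternatives, which counted unnamed stromal clusters as fibroblasts, all myeloid nuclei as macrophages or left out endothelial sub-cluster 1, were chosen after seeing the data. With unnamed stromal clusters as fibroblasts, the log2 ratio of fibroblast Angpt2 in Tgfbr2-cKO at 21 dpi was 1.74 in place of 2.27. With 35 endothelial and 40 mural nuclei in Tgfbr2-cKO at 7 dpi, few UMIs limit what those values can show.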
